A study of Homo sapiens with 14 samples.

Results

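These results concern the human lung carcinoma line A549, in which U2AF1 was knocked down with a siRNA and the S34F mutant of U2AF1 was then supplied by a virus. The members were chosen by their labels: 4 libraries with S34F (2 with the construct named v1 and 2 with the construct named v3) and 2 knockdown libraries that received an empty vector, which makes 6 of the 14 RNA-seq libraries of the series. The S34F, wild-type and knockdown groups all carry the U2AF1 siRNA, so re-expression is set against a depleted cell and not against a normal one. Also used were 2 libraries with control siRNA and empty vector, 4 with wild-type U2AF1 (v1 and v3, 2 each) after the same knockdown, and 2 of untreated cells. All are of 1 cell line, no label says that replicates were separate cultures, and p-values therefore measure only the spread between these libraries, which may be technical. The question was which changes seen after the knockdown the mutant still reverses, and which it does not.

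U2AF1 is the small subunit of U2AF, the factor that recognises the end of an intron. U2AF1 contacts the AG at the 3′ splice site while its partner U2AF2 binds the pyrimidine-rich stretch before it, and together they help bring the U2 snRNP to the branch point. The S34F change lies in a zinc finger of U2AF1 and recurs in lung adenocarcinoma and in myelodysplastic syndromes. It is known for shifting the choice between 3′ splice sites according to the base just before the AG, away from T.

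Levels are in FPKM (fragments per kilobase of a transcript, relative to all mapped fragments), and a gene's level is the sum over its isoforms. Steps in the low values of genes with 1 isoform gave the depth: 1 FPKM over 1 kilobase stood for 14 fragments in v1 S34F replicate 2 and for 21.0 in knockdown replicate 2, with the other libraries between. The keratins KRT8 and KRT18, which mark epithelial cells such as A549, were at 1083 to 1656 FPKM in the S34F and knockdown libraries. Of the 17 epithelial genes listed, EPCAM was at 2.201 to 5.01 FPKM, and CLDN7 (1.68 at most), ESRP1 (0.2166 at most), ESRP2 (0.1363 at most) and GRHL2 (0.01155 at most) were low or near 0. Replicates of a group correlated at 0.9647 to 0.9818 over the genes tested, which do not vary independently. The first principal component (30.7% of the variance) set v1 S34F replicate 2 (48.4) and v3 S34F replicate 2 (38.7) apart from the other 12 libraries (-25.9 to 15.1). Results that these libraries carry are given without them as well. Differences are log2 differences of FPKM + 1 from limma, with standard errors (SE) and Benjamini-Hochberg adjusted p-values, and a gene is called when the adjusted p is under 0.05.

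U2AF1 itself was high in every library that received a construct. Its level (chr21:44513066-44527697, GRCh37) was 117 and 119 FPKM with control siRNA, 16.2 and 28.9 after knockdown, 2180 and 3852 with v1 S34F, and 2114 and 3239 with v3 S34F. Wild-type constructs gave a like level, 2351 to 3313 FPKM. Control, knockdown and construct libraries did not overlap. The difference was 6.93 (SE 0.27, adjusted p = 6.5e-07) between S34F and knockdown and 0.03 (adjusted p = 0.97) between S34F and wild type, where the level of U2AF1 cannot tell the mutant from the wild-type allele, or the construct from the cell's own gene. All re-expression libraries thus held far more U2AF1 RNA than control cells.

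U2AF2, the large subunit, moved the other way with the mutant. Its level (chr19:56165512-56186081) was 172 and 226 FPKM with control siRNA, 273 and 340 after knockdown, 106 and 116 with v1 S34F, and 103 and 96.4 with v3 S34F. Wild-type libraries held 201 to 238 FPKM. All 4 S34F libraries lay below all control, knockdown and wild-type libraries. U2AF2 rose by 0.62 with the knockdown (adjusted p = 0.043) and fell by 1.53 from knockdown to S34F (SE 0.12, adjusted p = 0.00027), past the control siRNA level (difference -0.91, adjusted p = 0.0041). The direct difference between S34F and wild type was -1.03 (SE 0.10, adjusted p = 0.0025), and the calls against knockdown and against wild type held without any 1 library. Here and below, this covers the 4 S34F and 2 knockdown libraries for a call against knockdown, and the 8 construct libraries for a call against wild type.

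**Figure D1:**
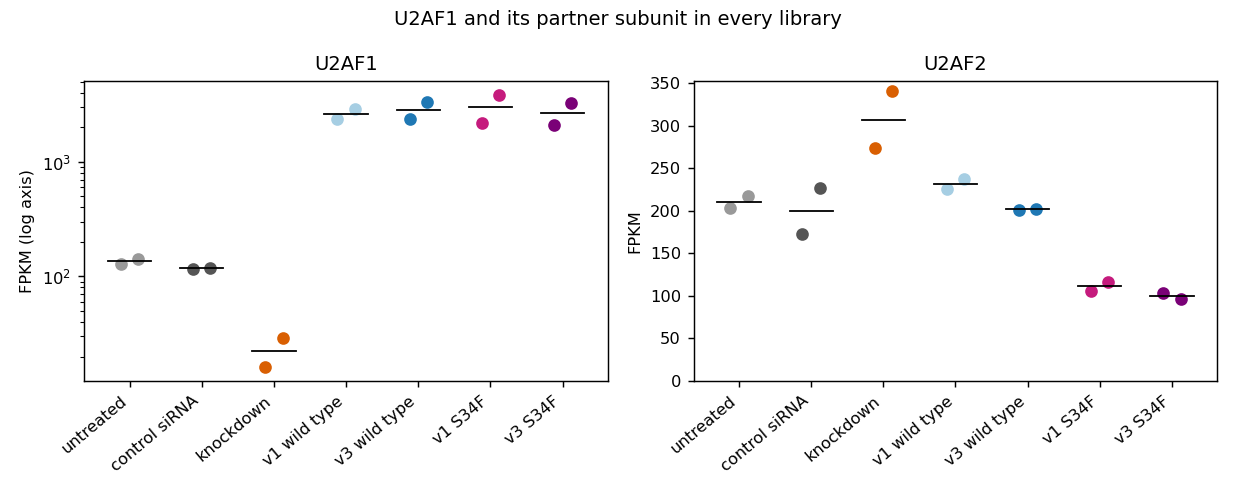
Levels of U2AF1 (left, FPKM on a log axis) and U2AF2 (right, FPKM) in each of the 14 libraries by group, with the mean of each group as a line. U2AF1 is at 2114 FPKM or more in all 8 libraries with a construct, and U2AF2 is at 96.4 to 116 FPKM in the 4 S34F libraries, below every other library.

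The constructs differed in which U2AF1 isoform carried the signal. With v1 S34F, ENST00000380276 made up 97.8% and 97.4% of U2AF1, and with v3 S34F it made up 1.13% and 1.44%. ENST00000291552 made up 1.31% and 1.45% with v1 S34F and 95.5% and 95.1% with v3 S34F. Apart from this pair, no isoform was called between v3 and v1 S34F by limma (2 of 41727 isoforms, 0.00479%, 1730 at an unadjusted p under 0.05), and neither was any gene (0 of 14233, 240 at an unadjusted p under 0.05). The constructs were averaged with equal weight.

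Against knockdown, 1272 of 14233 genes tested were called with S34F (8.94%), 723 of them higher (5.08% of the genes tested) and the others lower (3.86%). The v1 construct alone gave 808 called genes (5.68%) and v3 alone 377 (2.65%), a difference in number that was not itself tested. Of the called genes, 1270 had all 4 S34F libraries above or below both knockdown libraries, as had 39.9% of all genes tested. The count rested on single libraries: it was 47 without knockdown replicate 2, 195 without knockdown replicate 1, 540 without v1 S34F replicate 2 and 440 without v3 S34F replicate 2. With the replicate number as a block, which the correlated deviations of same-numbered libraries call for, 3327 genes were called. Unless the block is named, standard errors, adjusted p-values and calls here are from the fit without it. A gene given as not called may therefore be called with the block.

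Among the 12 largest rises, U2AF1 apart, were stress and immediate-early genes. None of the 12 was called between S34F and wild type, at differences from 0.24 (SLX1A) to 2.07 (AC016700.6). With the replicate block, ANKRD1, DGKA, CTD-2248H3.1 and ENSG00000227953 were called higher than with wild type. EGR1, an immediate-early transcription factor, was at 0.377 and 0.162 FPKM after knockdown, at 2.75 and 12.7 with v1 S34F, and at 3.35 and 13.7 with v3 S34F (2.58, SE 0.57, adjusted p = 0.022). IL8, the neutrophil chemokine, was at 4.03 and 0.631 after knockdown, at 9.09 and 20.4 with v1 S34F, and at 12.7 and 62.2 with v3 S34F (2.86, SE 0.78, adjusted p = 0.047). In both genes the second replicates of the S34F groups were higher than the first. DDIT3, the transcription factor CHOP of the integrated stress response, was at 28.2 and 16.5 after knockdown, at 67.3 and 95.9 with v1 S34F, and at 66.3 and 97.6 with v3 S34F (1.85, SE 0.30, adjusted p = 0.0073). ANKRD1, a known target of YAP signalling, was at 13.1 and 16 after knockdown, and its S34F libraries ran from 33.5 to 80 (1.80, SE 0.34, adjusted p = 0.013). DGKA, which phosphorylates diacylglycerol, was at 6.92 and 8.97 after knockdown, and its S34F libraries ran from 21.9 to 43.1 (1.80, SE 0.30, adjusted p = 0.0074).

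The other large rises included several genes without a known protein role. DHRS2, a short-chain dehydrogenase, had 11.9 and 5.06 FPKM after knockdown and 20.9 to 50.6 with S34F (1.94, adjusted p = 0.022). SLX1A, a subunit of a structure-specific nuclease, had 17.6 and 16.9 FPKM after knockdown and 50.3 to 69.6 with S34F (1.71, SE 0.17, adjusted p = 0.00093), but it has a near-identical copy in SLX1B, and reads may be split between them. RP11-350N15.4, which overlaps FGFR1, was listed at 0 and 1.55 FPKM after knockdown and had 7.29 to 29.1 with S34F (3.27, adjusted p = 0.0024), and without strand its reads cannot be told from those of FGFR1. AC016700.6 (chr2:70480987-70481142) was listed at 0 in both knockdown libraries and had 8.79 to 30.7 FPKM with S34F. The fit placed its difference at 4.44 (adjusted p = 0.0076), a value that depends on the pseudocount. RP11-110I1.5 (2.24), CTD-2248H3.1 (2.17) and ENSG00000227953 (1.92) completed the list. The call held without any 1 library for RP11-350N15.4 and SLX1A. It was lost without knockdown replicate 2 for the other 10, and without knockdown replicate 1 also for all of these except DDIT3 and CTD-2248H3.1. Leaving out v1 S34F replicate 2 ended the calls for IL8, EGR1, DHRS2, RP11-110I1.5 and CTD-2248H3.1, and leaving out v3 S34F replicate 2 ended those for IL8, EGR1, DHRS2 and CTD-2248H3.1.

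NCAPG2, a subunit of the condensin II complex that compacts chromosomes, was the fall with the smallest adjusted p among the 12 largest. Its level (chr7:158424003-158497520) was 48.5 and 48.7 FPKM with control siRNA, 45.2 and 44.5 after knockdown, 12.1 and 11.3 with v1 S34F, and 14 and 11.5 with v3 S34F. Wild-type libraries held 32.6 to 37.5. It was not called in the knockdown (-0.11, adjusted p = 0.67) and fell by 1.80 from knockdown to S34F (SE 0.10, adjusted p = 1.4e-05). The difference from wild type was -1.47 (SE 0.08, adjusted p = 3e-05).

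SNAP25, a membrane fusion protein of the SNARE family, was at 24.5 and 30.7 FPKM after knockdown, at 4.36 and 2.51 with v1 S34F, and at 6.61 and 3.48 with v3 S34F. It fell by 2.50 (SE 0.25, adjusted p = 0.00093), to below the control siRNA libraries, which held 14.6 and 15.4. ATP5G1P4, a pseudogene of a subunit of ATP synthase, was at 4.84 and 5.82 FPKM after knockdown and at 0 to 0.726 with S34F (-2.21, SE 0.27, adjusted p = 0.0025). TM4SF20, a tetraspan membrane protein, was at 10.1 and 20.5 FPKM after knockdown and at 1.66 to 4.39 with S34F (-2.20, SE 0.39, adjusted p = 0.0093). H19, an imprinted long noncoding RNA, was at 60.2 and 67 FPKM after knockdown, at 17.8 and 4.19 with v1 S34F, and at 18.2 and 5.85 with v3 S34F (-2.60, SE 0.66, adjusted p = 0.035). Control siRNA libraries held 9.77 and 11.3 FPKM of H19, but its rise with the knockdown was not called (2.49, adjusted p = 0.11). NR4A1, an orphan nuclear receptor and immediate-early gene, was at 27.3 and 28.6 FPKM after knockdown and at 3.49 to 12.8 with S34F (-2.02, adjusted p = 0.021), so that it fell where EGR1 rose.

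The remaining falls were those of LINC00473 (-2.19), SLC45A4 (-1.96), NPTX1 (-1.96), RP11-566K19.6 (-1.82), TM4SF4 (-1.79) and CTC-429P9.4 (-1.79). Of the 12 falls, the calls for NCAPG2 and SNAP25 held without any 1 library. All of the other 10 were lost without knockdown replicate 2, and all of them except ATP5G1P4 and TM4SF20 also without knockdown replicate 1. Calls for H19, NR4A1, SLC45A4, NPTX1 and TM4SF4 were lost without v1 S34F replicate 2 or v3 S34F replicate 2. Those for LINC00473 and CTC-429P9.4 were lost without v1 S34F replicate 2, and that for RP11-566K19.6 without v3 S34F replicate 2. Of the 12 falls, only NCAPG2, ATP5G1P4 and SNAP25 (-0.98, adjusted p = 0.039, limma) were called between S34F and wild type. That call of SNAP25 was lost without any 1 wild-type library or either S34F second replicate. With the replicate block, all 12 except RP11-566K19.6 were called lower than with wild type.

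**Figure D2:**
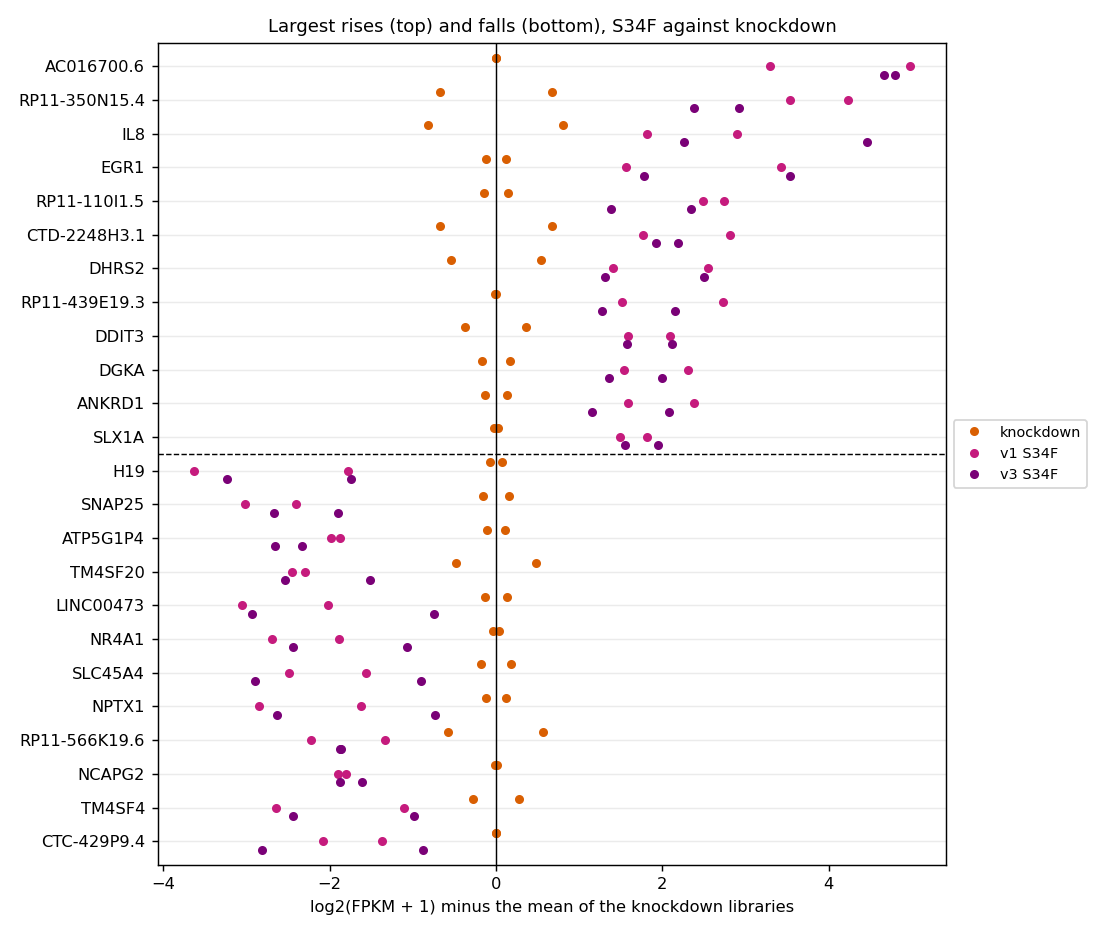
The 12 largest rises (above the dashed line) and 12 largest falls (below it) among called genes, U2AF1 apart, as log2(FPKM + 1) of each library minus the mean of the knockdown libraries. Each point is 1 library (2 knockdown, 2 v1 S34F, 2 v3 S34F), and no S34F library overlaps the knockdown libraries in these genes, which was a condition for being shown.

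Genes were also read in 16 lists by role, beside a median difference of 0.04 over all genes tested. Of 24 measured p53 targets, 13 were higher with S34F and none lower (median 0.64), against 5.08% higher among all genes. FDXR, a mitochondrial reductase that is a p53 target, was at 71 and 68 FPKM after knockdown, at 183 and 186 with v1 S34F, and at 171 and 184 with v3 S34F (1.36, SE 0.14, adjusted p = 0.00093). MDM2, the ubiquitin ligase that restrains p53, was at 68.1 and 68.7 after knockdown, at 139 and 322 with v1 S34F, and at 126 and 278 with v3 S34F (1.53, SE 0.35, adjusted p = 0.025). GADD45A (1.42), which acts in growth arrest, and BBC3 (1.28), the pro-apoptotic PUMA, rose too, as did SESN1, DDB2, SESN2, TP53INP1, BTG2, SPATA18, TNFRSF10B, CDKN1A and TP53I3 by 0.44 to 1.12. None of the 24 was called between S34F and wild type, but the replicate block gave 2 higher and 1 lower. With wild type against the same knockdown libraries, 5 were called higher and the list median was 0.58. Without replicate 2 of both S34F groups, 6 were called higher and the median was 0.56. None of the 24 was called with the knockdown itself (median -0.07 against control siRNA, 9 above 0), so these rises are not counted as reversals. Smaller changes with the knockdown may have gone uncalled. Levels summed over the list were 1561 and 1759 FPKM with control siRNA and 1595 and 1670 after knockdown. They were 2311 to 2537 with S34F.

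Genes of DNA replication and mitosis were lower with S34F than after knockdown. Of 28 genes of G1/S and DNA replication, 8 fell and none rose (median -0.35), and of 32 genes of G2/M and mitosis, 7 fell and none rose (median -0.25), against 3.86% lower among all genes. RFC3, a subunit of the clamp loader, was at 41.2 and 50.9 FPKM after knockdown and at 20.9 to 27.1 with S34F (-0.94, adjusted p = 0.0053). POLE2, MCM6, MCM4, GINS2, RRM1 and FEN1 were among the other replication genes that fell. TOP2A, the topoisomerase that untangles replicated chromosomes, was at 205 and 189 after knockdown, at 103 and 84.7 with v1 S34F, and at 129 and 100 with v3 S34F (-0.93, SE 0.11, adjusted p = 0.0025), against 184 to 187 in the wild-type libraries. NCAPG2, BUB1B, OIP5, AURKA, NUF2 and SMC2 were the other mitotic genes that fell. With wild type against knockdown the medians were -0.29 (replication) and -0.13 (mitosis), and no gene of either list was called. The medians of S34F minus wild type were -0.09 and -0.06. Between S34F and wild type, TOP2A (-0.84), NCAPG2 (-1.47), BUB1B (-0.57), OIP5 (-1.55), RFC3 (-0.59) and RRM1 (-0.67) were called lower and no gene of either list higher. With the replicate block, 14 mitotic genes were lower against knockdown, and against wild type 4 replication genes were lower, 8 mitotic genes lower and 1 higher. Without replicate 2 of both S34F groups, 4 replication and 2 mitotic genes were called lower against knockdown.

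Stress and inflammatory genes rose in smaller numbers, to be read against 5.08% higher and 3.86% lower among all genes. Of 22 genes of the unfolded protein and integrated stress response, 5 rose and none fell: DDIT3, PPP1R15A (1.08), SESN2 (1.04), TRIB3 (0.88) and ASNS (0.58). Of 19 measured genes of NF-kB and inflammatory cytokines, IL8, IL32, BIRC3 (1.17) and PTGS2 (0.83) rose and none fell (median 1.08). The median of that list with wild type against knockdown was 0.96, and none of its genes was called between S34F and wild type. Of 13 measured interferon-stimulated genes, IFI6 (0.93) and IFIT3 (0.74) rose. Without replicate 2 of both S34F groups, 1 stress response gene and no gene of the NF-kB or interferon lists was called by limma. After quantile normalization, 2 NF-kB genes and 1 interferon-stimulated gene were called higher. Under the replicate block these became 8 stress response genes higher and 1 lower, 7 NF-kB genes higher, and 4 interferon-stimulated genes higher and 2 lower, and against wild type 1 stress response gene was higher, 2 were lower and 1 NF-kB gene was lower.

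Among splicing factors, more were called lower than higher with S34F against knockdown, beside 5.08% higher and 3.86% lower among all genes. Of 25 factors of splice site recognition, U2AF2, SNRNP70, LUC7L2, SF1 and RBM39 fell and DDX46 rose. SNRNP70, a protein of the U1 snRNP, was at 243 and 280 FPKM after knockdown and at 132 to 150 with S34F (-0.87, adjusted p = 0.0039). DDX46, a helicase of the U2 snRNP, was at 69.8 and 84.3 FPKM with control siRNA, at 47.8 and 45 after knockdown and at 65 to 86.5 with S34F (0.71, adjusted p = 0.0042). Of 27 SR proteins and hnRNPs, 7 fell and PTBP3 rose (0.46). PTBP1, a repressor of exons flanked by pyrimidine tracts, was at 291 and 333 FPKM after knockdown and at 173 to 193 with S34F (-0.76, adjusted p = 0.0038). HNRNPL (-0.73), HNRNPU (-0.54), SRSF6, SRSF7, HNRNPC and HNRNPK fell as well. After quantile normalization, 3 of 25 and 3 of 27 were called lower and PTBP3 was not called, and without replicate 2 of both S34F groups 2 and 2 were called lower. None of 16 factors of nonsense-mediated decay was called (median -0.17), and their smallest adjusted p was 0.089 (MAGOHB, -0.30). In the fit with the replicate block, MAGOHB was called lower (limma, adjusted p = 0.041). The block also called 3 factors of splice site recognition higher and 5 lower, and 13 SR proteins and hnRNPs lower and 1 higher. SR proteins and hnRNPs had a median of -0.23 with S34F and -0.27 with wild type against knockdown, and 0.28 with the knockdown itself. For splice site recognition these medians were -0.13, -0.07 and 0.098. Between S34F and wild type, U2AF2 was called lower, RBM39 higher and no SR protein or hnRNP. There the block called 2 factors of splice site recognition and 1 SR protein or hnRNP higher.

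In the remaining lists fewer genes were called, and these counts stand beside 5.08% higher and 3.86% lower among all genes. Of 14 genes of heme synthesis (median -0.17), FECH and PPOX (0.77) rose and ABCB10 fell (-0.53). ABCB10 (-0.54) and UROS (-0.42) were called lower with S34F than with wild type. FECH was not called there (-0.07, adjusted p = 0.81, limma). FECH, which inserts iron into the porphyrin ring, was at 50 and 43.1 FPKM with control siRNA, at 25.5 and 20.5 after knockdown and at 53.1 to 60.1 with S34F (1.27, SE 0.12, adjusted p = 0.00086). No gene of 21 for cholesterol synthesis was called against knockdown, while INSIG1 (0.95) and MVK (0.72) were higher with S34F than with wild type. Of 31 ribosomal protein genes, RPS3 rose (0.39), and its level was 1105 and 1157 FPKM after knockdown and 1413 to 1550 with S34F. Epithelial genes ITGB4 (1.11) and CLDN4 (0.63) rose out of 13 measured (median 0.38). The replicate block gave 4 genes higher and 5 lower for heme synthesis against knockdown, and 3 lower against wild type. It gave 5 epithelial genes higher against knockdown. For cholesterol synthesis it gave 4 higher and 1 lower against knockdown and 5 higher against wild type. Of 10 fibroblast markers 2 were measured (COL1A1 and THY1), and the summed level of all 10 was 10.1 to 11.9 FPKM with S34F and 8.59 to 10.7 after knockdown, with DCN and FAP listed at 0 in all 6 libraries and COL1A2 at 0.08061 FPKM at most. Of 11 leukocyte and endothelial markers, CD68 rose (0.98, adjusted p = 0.037), 2 were measured (CD68 and CD14), and the summed level over the list, as far as its genes are in the tables, was 41.3 to 62.4 FPKM with S34F and 23.9 to 26.1 after knockdown. The leukocyte marker PTPRC (0.02779 FPKM at most), CD3E (listed at 0) and the endothelial marker VWF (0.01102 at most) were at or near 0. Mitochondrially encoded RNA, as a sign of RNA quality, was at 42510 to 71320 FPKM in sum with S34F and at 40300 to 44390 after knockdown, and none of its 15 genes was called by limma (median 0.31, and -0.01 without replicate 2 of both S34F groups). The part of mitochondrial RNA in the results above was not tested. Of the up to 4 genes per list with the largest change, calls for U2AF2, FDXR, NCAPG2, TOP2A and FECH held without any 1 library, and all others, CD68 among them, were lost without knockdown replicate 2.

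The knockdown changed 405 genes against control siRNA (2.85% of genes tested), 112 up (0.787%) and 293 down (2.06%). S34F reversed 182 of them (44.9%), that is 39 of the 112 and 143 of the 293, meaning that the gene was called in the opposite direction against knockdown. Another 220 were not called with S34F and 3 went further the same way. Wild type, with 1.43% of all genes called against knockdown, reversed 104, of which S34F also reversed 74. Both comparisons use the knockdown libraries, so a deviation in those libraries enters them with opposite sign, and the count is not a test of reversal. It was 6 of 15 without knockdown replicate 2, 24 of 43 without replicate 1, and 11 of 19 and 94 of 274 without control siRNA replicates 2 and 1. Without S34F second replicates it was 110 of 363 (v1) and 89 of 314 (v3), and with the replicate block it was 803 of 1681.

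U2AF1 apart, the reversed genes with the largest knockdown changes came back to differing degrees. IL32, a proinflammatory cytokine, was at 20.4 and 12.8 FPKM with control siRNA, at 6.36 and 3.77 after knockdown, at 14.6 and 13.5 with v1 S34F, and at 13.2 and 23.5 with v3 S34F. All 4 S34F libraries lay above the knockdown and within or beyond the range of control. SEC14L2, a lipid-binding protein that carries tocopherol, was at 17.1 and 13.8 with control siRNA, at 4.32 and 4.63 after knockdown and at 8.81 to 12.5 with S34F (1.12, SE 0.15, adjusted p = 0.0038), all below control. EPHB2, an ephrin receptor, was at 32.1 and 28.3 with control siRNA, at 8.43 and 5.88 after knockdown, at 12.9 and 15.4 with v1 S34F, and at 13.2 and 18.6 with v3 S34F. It rose by 0.98 (SE 0.18, adjusted p = 0.012) and stayed below control by the same test (-0.97, adjusted p = 0.012). VAMP1, a vesicle SNARE, went the other way, from 7.98 and 13 with control siRNA to 23.8 and 45.2 after knockdown and 9.21 to 13.7 with S34F (-1.51, SE 0.29, adjusted p = 0.014).

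The rest of that group was made up of AC016700.6 and ATP5G1P4, given above, and of 4 genes with no clear protein role. HNRNPA1P33, a pseudogene of HNRNPA1 whose reads may come from the parent gene, was at 57.3 and 47.1 FPKM with control siRNA, at 22.2 and 11.7 after knockdown and at 31.9 to 50.3 with S34F (1.30, adjusted p = 0.0063). FER1L4 was at 1.6 and 0.836 after knockdown and at 3.62 to 7.05 with S34F (1.47, adjusted p = 0.009). AP003419.11 (1.24) rose and GS1-259H13.2 (-1.01) fell. Calls for EPHB2, SEC14L2, IL32, VAMP1, FER1L4 and HNRNPA1P33 were lost without knockdown replicate 2. Those for AP003419.11 and GS1-259H13.2 were lost also without knockdown replicate 1 or without either S34F second replicate.

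Against control siRNA, where 7.81% of all genes were called, 11 of the 182 still differed on the side of the knockdown (SOAT1, LTBP4, EEF1A2, TGFBI, MYRF, RBM39, MORC4, EPHB2, DBNL, APEH and TAPBP) and 5 lay past the control level (U2AF1, U2AF2, GNL2, ZNF326 and AHNAK2). The 3 genes that went further in the direction of the knockdown are named after their values were seen. CITED2, a transcriptional co-regulator, was at 6.02 and 5.25 FPKM with control siRNA, at 13.2 and 13.3 after knockdown and at 18.3 to 31.2 with S34F (0.79, adjusted p = 0.045). CREG1 fell by a further 0.50 (adjusted p = 0.036) and SMYD2, a lysine methyltransferase, by a further 0.46 (adjusted p = 0.04).

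Whether the mutant and the wild type restored a gene to a different level was tested directly. The comparison of S34F with wild type shares no library with that of knockdown with control. Over all genes it called 264 (1.85%), and of the 405 knockdown genes it called 26 (6.42%). In 17 of these the mutant stood short of wild type, on the knockdown side, and all 17 also differed from control siRNA. In the other 9 it stood past wild type. The count was 4 and 5 without a replicate 1 or 2 of v1 wild type, 5 and 4 without those of v3 wild type, 8 without either S34F second replicate, and 1 to 10 without a knockdown or control library, while the replicate block gave 201 (113 short, 88 past).

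Among the genes short of wild type, EYA3, a transcriptional co-activator with phosphatase activity, was at 5.77 and 5.96 FPKM with control siRNA, at 10.4 and 11.1 after knockdown, at 11.8 and 12.9 with v1 S34F, and at 11.2 and 13.5 with v3 S34F. Its wild-type libraries were at 5.26 to 7.26. The S34F libraries were all above the knockdown libraries, but that difference was not called (0.19, adjusted p = 0.45). Of all genes tested, 39.9% had all S34F libraries above or all below the knockdown libraries. The wild-type libraries of EYA3 overlapped control (difference between S34F and wild type 0.91, adjusted p = 0.0052). AC012146.7 was at 8.05 and 8.16 with control siRNA, at 3.7 and 3.57 after knockdown, at 2.67 to 4.44 with S34F and at 7.5 to 9.48 with wild type (-1.02, adjusted p = 0.0055). CSNK2B-LY6G5B-1181, a readthrough transcript whose reads may come from either neighbour, was at 1.85 and 1.69 with control siRNA, at 10 and 11.6 after knockdown, at 6.03 to 9.63 with S34F and at 1.19 to 2.47 with wild type (1.67, adjusted p = 0.0026). These 3 calls held without any 1 of the 8 construct libraries.

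RBM39, a splicing factor related to U2AF2, lay between. It was at 165 and 166 FPKM with control siRNA, at 337 and 332 after knockdown, at 261 and 248 with v1 S34F, at 275 and 237 with v3 S34F, and at 168 to 221 with wild type. It fell by 0.39 from knockdown to S34F (SE 0.08, adjusted p = 0.02), remained 0.62 above control (adjusted p = 0.0041) and stood 0.41 above wild type (adjusted p = 0.015), and the call against knockdown was lost without either knockdown library or either S34F second replicate. LRRC40 (-0.71), ABCC4 (-0.59), a transporter that exports cyclic nucleotides, NUDT2 (0.45), which cleaves diadenosine tetraphosphate, and TMEM67 (-0.56), a protein of the ciliary transition zone, were the others among the 8 with the largest knockdown change. Each of these 5 calls was lost without any 1 of the 4 wild-type libraries. Those of ABCC4, NUDT2 and TMEM67 were lost also without either S34F second replicate, that of LRRC40 without v1 S34F replicate 2, that of NUDT2 without v3 S34F replicate 1 and that of TMEM67 without any 1 construct library.

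The other 9 genes short of wild type are outside that choice and were named after their values were seen. HACL1, an enzyme of fatty acid alpha-oxidation, was at 22.5 and 22.8 FPKM with control siRNA, at 14.3 and 13 after knockdown, at 9.41 to 12.3 with S34F and at 22.1 to 26.9 with wild type (-1.08, adjusted p = 0.00041). GTF2H1, a subunit of the TFIIH complex, was at 21.9 and 19.3 after knockdown, at 14.2 to 17 with S34F and at 26.3 to 33.4 with wild type (-0.87, adjusted p = 0.0047). In both, all 4 S34F libraries were below both knockdown libraries, but neither fall from knockdown was called. Such a lack of overlap, above or below, was seen in 39.9% of all genes tested. DHX9, an RNA helicase, was at 180 and 179 after knockdown, at 145 to 167 with S34F and at 116 to 119 with wild type (0.41). SNX14 (-0.72), PATL1 (0.57), CENPH (0.55), IMPA1 (0.43), EIF2B2 (-0.42) and MTHFD2 (0.33) were the rest. The calls of HACL1, GTF2H1 and SNX14 held without any 1 construct library, and those of the others were lost without several.

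Among the 9 genes past wild type, ZNF326, a zinc finger protein that couples transcription with splicing, was at 30.7 and 38.7 FPKM with control siRNA, at 58.8 and 57.7 after knockdown, at 20.1 and 18.6 with v1 S34F, at 20 and 19.5 with v3 S34F, and at 26.9 to 29.9 with wild type. It fell by 1.52 from knockdown to S34F (adjusted p = 0.00011) and lay 0.53 below wild type on the log2 scale (difference -0.53, adjusted p = 0.016). GNL2, a nucleolar GTPase of ribosome assembly, was at 40.9 and 43 with control siRNA, at 64.1 and 62.9 after knockdown, at 26.1 to 32.4 with S34F and at 41.6 to 48.9 with wild type (-0.65, adjusted p = 0.0089). AHNAK2, a large scaffold protein, was at 73.9 and 81.7 with control siRNA, at 49.8 and 44.7 after knockdown, at 87.9 to 125 with S34F and at 67.3 to 71.2 with wild type (0.59, adjusted p = 0.012). U2AF2 and ATP5G1P4 (-1.68, adjusted p = 0.0053) belonged here, as did FAM91A1 (0.52), BCKDHA (0.52), MRM1 (0.47) and CORO1B (0.42). The calls of U2AF2 and ATP5G1P4 against wild type held without any 1 construct library, that of GNL2 was lost without v3 wild type replicate 2, and the rest were lost without any of several.

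**Figure D3:**
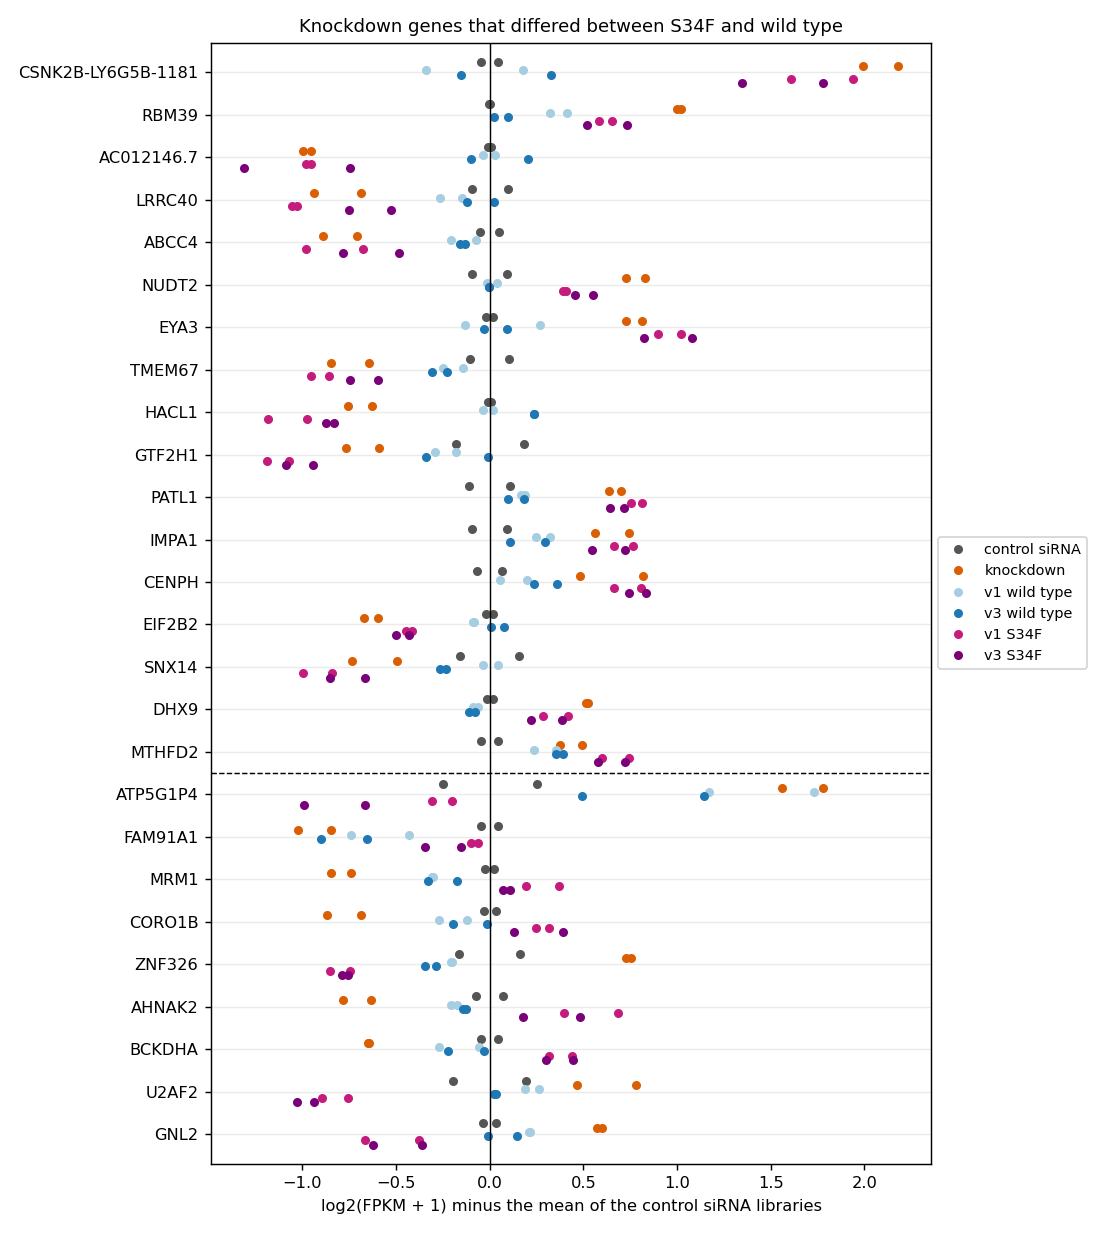
The 26 knockdown genes called between S34F and wild type, as log2(FPKM + 1) minus the mean of the control siRNA libraries, 1 point per library. Above the dashed line are the 17 genes in which S34F stood on the knockdown side of wild type, and below it the 9 in which S34F stood on the other side.

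Some genes changed with S34F against both knockdown and wild type. Of the 1272 genes called against knockdown, 159 were called against wild type, 158 of them with the same sign, in comparisons that share the S34F libraries. GUCA1B, a calcium sensor of photoreceptors, was at 1.62 and 2.23 FPKM after knockdown, at 6.06 and 10.5 with v1 S34F, at 4.14 and 7.56 with v3 S34F, and at 0.643 to 1.09 with wild type (2.04 against wild type, adjusted p = 0.0029). CNTF, a neurotrophic cytokine, was at 1.81 and 1.86 after knockdown, at 4.28 to 6.92 with S34F and at 0.865 to 1.22 with wild type (1.68, adjusted p = 0.0026). OIP5, a protein that helps load CENP-A at centromeres, was at 10.3 and 8.36 after knockdown, at 3.93 and 2.01 with v1 S34F, at 6.02 and 2.18 with v3 S34F, and at 10.2 to 12.5 with wild type (-1.55, adjusted p = 0.011). RP11-539L10.3 was at 2.01 and 2.38 after knockdown, at 0 to 0.275 with S34F and at 1.46 to 2.88 with wild type (-1.42, adjusted p = 0.0044). KB-1460A1.5 (1.69) and RP11-372K14.2 (1.64) were higher than with wild type. The calls against wild type of GUCA1B, CNTF and RP11-539L10.3 held without any 1 construct library. That of OIP5 was lost without any 1 wild-type library, that of RP11-372K14.2 without any 1 of these or either S34F second replicate, and that of KB-1460A1.5 without v3 S34F replicate 2, v1 wild type replicate 1 or either v3 wild-type library. The calls against knockdown were lost without knockdown replicate 2 for all 6, without knockdown replicate 1 for all of them except RP11-539L10.3, and without either S34F second replicate for OIP5 and RP11-372K14.2.

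Isoform usage, the share of a gene's FPKM carried by 1 isoform, changed against knockdown for 941 of 41727 isoforms (2.26%), 423 used more (1.01%) and 518 used less (1.24%) with S34F. The split turned to 376 used more and 324 less on an arcsine square root scale, and to 34 more and 15 less without replicate 2 of both S34F groups. The count was 59 without knockdown replicate 2, 219 without knockdown replicate 1, and 348 and 288 without the second replicates of v1 and v3 S34F. By annotated type, 20 retained-intron isoforms were used more and 26 less of 4946, and 24 isoforms marked for nonsense-mediated decay were used more and 31 less of 2711. Most of the largest differences lay in genes with few FPKM. ENST00000593146 of APC2, a relative of the APC tumour suppressor, made up 16.2% and 14% after knockdown, 70.7% and 82.2% with v1 S34F, and 74.9% and 78.5% with v3 S34F (61.5 points, SE 7.47, adjusted p = 0.0077), but the gene had a mean of 1.012 FPKM. OPLAH, BIRC7, SMPDL3A, TSSK3, APOC1P1 and RP11-147I3.1 were among the genes with the other largest rises, and SNCB, MCM3AP-AS1, PIH1D2 and MSANTD2 were among the largest falls. At higher levels, ENST00000405894 of FAM161A, a ciliary protein, made up 60.1% and 59.8% after knockdown, 0.0001% to 13.3% with S34F and 14.9% and 25.1% with control siRNA (-56.6 points, SE 4.68, adjusted p = 0.0038). ENST00000420164 of PIGF, an isoform marked for nonsense-mediated decay of an enzyme of GPI anchor synthesis, made up 57.7% and 62.9% after knockdown, 12.5% and 2.85% with v1 S34F, and 14% and 4.59% with v3 S34F (-51.9 points, adjusted p = 0.0055). The FAM161A call held without any 1 library, and the PIGF and APC2 calls were lost without knockdown replicate 2.

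The knockdown changed the usage of 49 isoforms (0.117%), and S34F reversed 34 of them (69.4%). Wild type, with 0.362% of all isoforms called, also reversed 34, and 30 were reversed by both. The count rests on shared knockdown libraries and moved to between 0 and 22 when 1 library was left out. ENST00000358867 of TMEM126B, an assembly factor of respiratory complex I, made up 21.6% and 19.2% with control siRNA, 65.2% and 57.8% after knockdown, 26% and 21.5% with v1 S34F, and 19.1% and 21.2% with v3 S34F (-39.5 points, SE 3.97, adjusted p = 0.0047, held without any 1 library). The S34F libraries overlapped control and lay below both knockdown libraries. ENST00000284245 of C16orf74 went from 37.4% and 18.8% to 81.6% and 79.8% after knockdown, and to 26.4% to 34.2% with S34F (-50 points, adjusted p = 0.0063). ENST00000254976 of SNAP25 (-43.2 points), ENST00000324138 of FANCB (-45.6), ENST00000477084 of FAM120C (-23.4) and ENST00000246914 of WNK4 (41.9) were reversed as well. All these calls except that of TMEM126B were lost without knockdown replicate 2, those of FANCB, FAM120C and WNK4 also without knockdown replicate 1, that of FAM120C also without either v3 S34F library, and that of WNK4 also without either S34F second replicate.

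Of the 49, 6 differed between S34F and wild type (12.2%, against 0.748% of all isoforms), 4 short of wild type and 2 past it. ENST00000507019 of MRPS18C, a protein of the mitochondrial ribosome, made up 30.4% and 22.3% with control siRNA, 60.8% and 65.4% after knockdown, 69.2% and 71.7% with v1 S34F, and 66.8% and 62.7% with v3 S34F, against 33.9% to 46.9% with wild type. ENST00000370871 of CRYZ, a quinone reductase, made up 4.44% and 5.41% with control siRNA, 31.2% and 33.5% after knockdown, 29.2% and 32.4% with v1 S34F, and 24% and 28.2% with v3 S34F, against 4.1% to 7.96% with wild type. Their S34F libraries stood near the knockdown ones, at differences of 4.49 points (adjusted p = 0.61) and -3.89 points (adjusted p = 0.49). Against wild type the differences were 27.9 points (SE 2.91, adjusted p = 0.01) and 22.5 points (SE 1.96, adjusted p = 0.0099), and both calls held without any 1 construct library. DCLRE1C (16.6 points), the nuclease Artemis, and IL18 (16.6 points), a cytokine of the interleukin-1 family, were the other isoforms short of wild type. ENST00000278422 of TMX2, a thioredoxin-related membrane protein, was past it, at 59.3% and 53.8% with control siRNA, 28.6% and 26.2% after knockdown, 74.6% and 79.5% with v1 S34F, 66.8% and 64.3% with v3 S34F, and 48.2% to 61.8% with wild type (15.9 points, adjusted p = 0.029). MGAT5B (17.6 points), a glycosyltransferase, was past it too. The calls of DCLRE1C, IL18, TMX2 and MGAT5B were each lost without several single libraries, v1 S34F replicate 2 and v3 S34F replicate 2 among them.

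**Figure D4:**
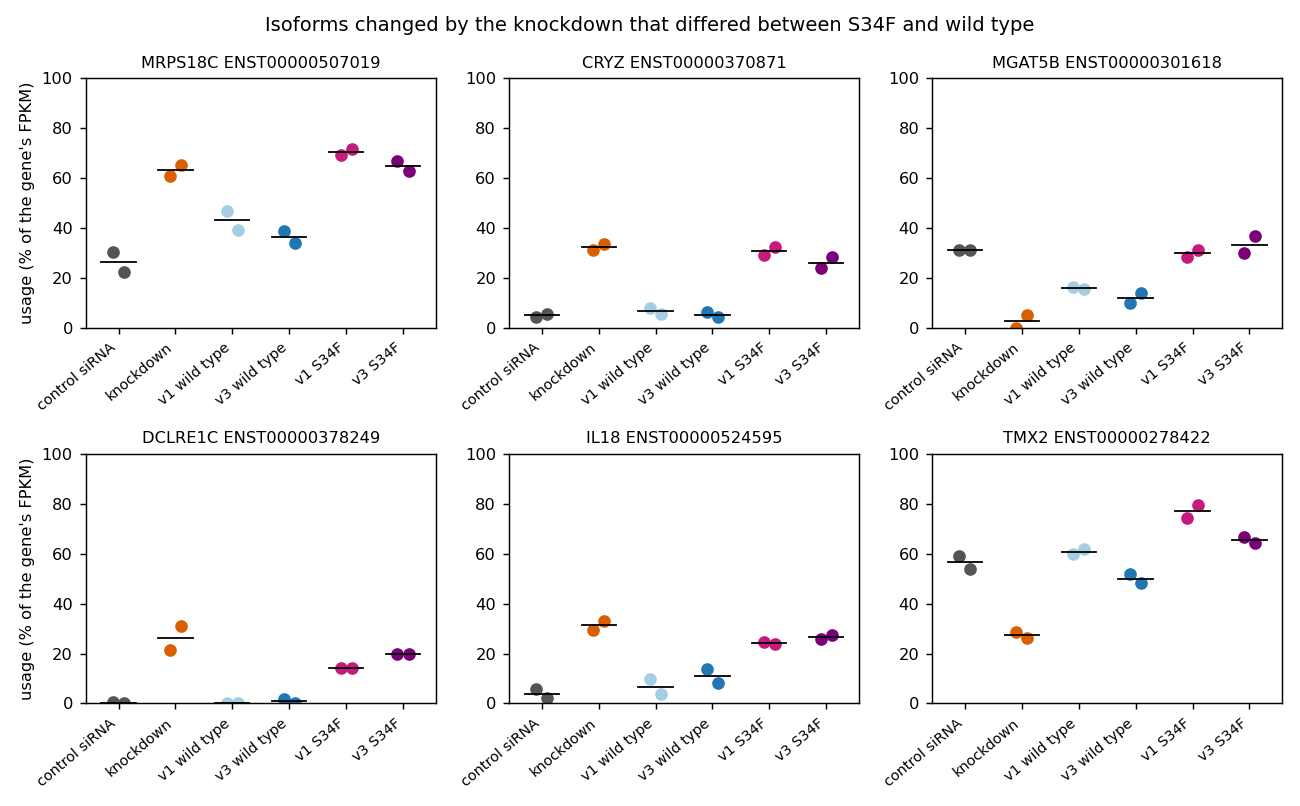
Usage of the 6 knockdown isoforms called between S34F and wild type, in percent of the gene's FPKM, by library, with group means as lines. In MRPS18C and CRYZ the S34F libraries sit beside the knockdown libraries and the wild-type libraries nearer to control siRNA.

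To see which splice sites were involved, the usage of 16466 alternative 3′ splice sites (acceptors) in 6903 genes was computed from the isoforms, and the acceptors were sorted by the base before the AG. Of these acceptors, 68.4% had C and 21.6% had T at that place. The sites below show the pattern and, in the last 4, exceptions to it, and each is printed 5′ to 3′ with the last 20 bases of the intron and the first 3 of the exon (GRCh38 positions and bases from GENCODE 29 transcripts that cover them). Capitals mark the base before the AG and the AG. The first 3 are T acceptors used less after knockdown, and less with S34F than with wild type, and were chosen after their values were seen.
CDV3 (chr3:133587876-133587898, plus strand): ttacatttcttttccctTAGgga
CRYZ (chr1:74707202-74707224, minus strand): atttctcttttattataTAGaag
RBM39 (chr20:35740595-35740617, minus strand): ccatctatctctctttgTAGact
The next 3 are the C acceptors with the smallest p among those used more with S34F than after knockdown.
TMX2 (chr11:57737893-57737915, plus strand): gtgacatctctgtgtttCAGtca
RP11-345J4.5 (chr16:29446920-29446942, minus strand): gttggtgttttgctcggCAGctt
NUSAP1 (chr15:41351013-41351035, plus strand): gtaatcccactgaattcCAGaat
The next are T acceptors used less with S34F, and also with wild type, than after knockdown, without that of PTK2, which is not printed.
GIT1 (chr17:29578986-29579008, minus strand): ctgccttcctctggactTAGatc
C1orf63 (chr1:25243631-25243653, minus strand): ctttttcttaacctgtcTAGctg
The last 4 go against the main direction, as 3 T acceptors used more and a C acceptor used less.
TMEM106C (chr12:47966069-47966091, plus strand): cctgacttgccctgatgTAGgcc
NAP1L1 (chr12:76047716-76047738, minus strand): gcatcttttctttgtggTAGggt
DOPEY1 (chr6:83119755-83119777, plus strand): taacaacggtgctatcaTAGgac
RPAP2 (chr1:92333371-92333393, plus strand): tgtttaaaaatgtgattCAGcat

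From knockdown to S34F, acceptors with C were mostly used more and acceptors with T mostly less. An acceptor was selected at an unadjusted p under 0.01 where usage moved by 5 points or more, with the smallest p kept in each gene, and there were 637 used more (3.87%) and 323 used less (1.96%). These percentages set 1 acceptor per gene against all 16466 acceptors of 6903 genes. They are therefore lower bounds and not the share of acceptors, or of genes, that changed. With C, 521 were used more and 138 less, so that 79.06% of those selected were used more. With T, 32 were used more and 138 less, so that 81.18% were used less. The median change over all acceptors was 1.236 points with C and -2.536 points with T. With A, 78 were used more and 40 less, and with G 6 and 7. The total was 588 to 1004 when 1 library was left out, with the lowest without knockdown replicate 2. T acceptors used less numbered 72 without knockdown replicate 1 and 86 without knockdown replicate 2, and C acceptors used more numbered 389 and 296. In each setting tried, more T acceptors were used less than more, and more C acceptors used more than less.

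The same count in the other comparisons gives the setting, and its percentages again set 1 acceptor per gene against all acceptors. With the knockdown itself (0.814% used more and 2.17% less), 266 C acceptors were used less and 73 more, and 68 T acceptors used less and 30 more. From knockdown to wild type (2.28% more and 0.996% less), 275 C acceptors were used more and 95 less, and 74 T acceptors used more (66.67%) and 37 less. These comparisons and that of S34F share the knockdown libraries. Between S34F and wild type, which does not use the knockdown libraries (1.7% more and 1.95% less), 201 C acceptors were used more and 86 less with S34F, and 20 T acceptors used more and 214 less (91.45% less).

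**Figure D5:**
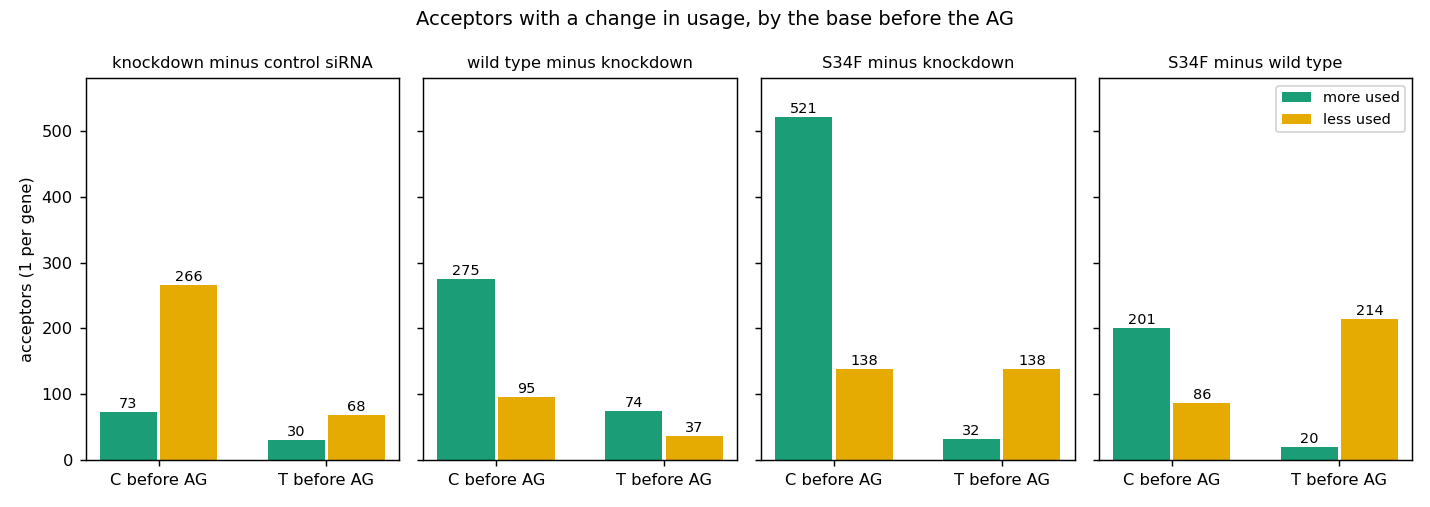
Number of acceptors used more (green) or less (yellow), 1 per gene, with C or T before the AG, in 4 comparisons. Bars start at 0 and carry their counts; with T before the AG, 74 were used more and 37 less from knockdown to wild type, and 32 more and 138 less from knockdown to S34F.

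Acceptors lost with the knockdown were followed into the re-expression groups. Of C acceptors, 266 were lost, and their median usage changed by 14.78 points from knockdown to wild type and by 16.77 points from knockdown to S34F. In 95 of them (35.71%) usage was lower with S34F than with wild type. Of T acceptors, 68 were lost, and the median changed by 16.6 points with wild type and by 8.511 points with S34F. In 53 of them (77.94%) usage was lower with S34F than with wild type, beside 69.32% of all T acceptors and 47% of all C acceptors. These acceptors were chosen for low usage in the same knockdown libraries, so a rise from knockdown is fixed in part by the choice, and the difference between S34F and wild type does not use those libraries.

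The T acceptors of CDV3, CRYZ and RBM39 lay near their knockdown level with S34F and near or above their control level with wild type. In CDV3, which encodes a conserved protein of little-known role, usage was 41.9% and 41.9% with control siRNA, 27.9% and 26.6% after knockdown, 29.9% and 31.9% with v1 S34F, 28.1% and 28.1% with v3 S34F, and 48.2% to 54.2% with wild type. The difference was 2.26 points between S34F and knockdown (unadjusted p = 0.41, limma) and -21.9 points between S34F and wild type (unadjusted p = 2.9e-06). In CRYZ, usage was 94.6% and 92.8% with control siRNA, 65.5% and 62.9% after knockdown, 52.8% to 72.5% with S34F and 90.2% to 92.6% with wild type. In RBM39, usage was 39.8% and 34.7% with control siRNA, 17.4% and 9.9% after knockdown, 11.5% to 22.9% with S34F and 30.7% to 39.7% with wild type. The S34F libraries of CRYZ and RBM39 overlapped knockdown and lay below every wild-type library.

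The C acceptors of TMX2, NUSAP1 and RP11-345J4.5 rose past their control level. In TMX2 the acceptor followed the isoform described above, from 28.6% and 26.2% after knockdown to 64.3% to 79.5% with S34F. In NUSAP1, a microtubule-binding protein of the spindle, usage was 19.6% and 20.4% with control siRNA, 11.3% and 6.61% after knockdown, 56.4% and 52.3% with v1 S34F, and 37% and 41.3% with v3 S34F, against 15% to 40.2% with wild type (37.8 points from knockdown, unadjusted p = 1.6e-06). In RP11-345J4.5, usage was 57.4% and 53.9% after knockdown and 88.2% to 92.6% with S34F (34.9 points, unadjusted p = 9e-07). It was 81.6% and 73.2% with control siRNA and 77.9% to 84.6% with wild type. Wild type changed it by 26.15 points from knockdown, and S34F minus wild type was 8.71 points. The T acceptors of GIT1, C1orf63 and PTK2 had been gained with the knockdown and were lost again, with S34F and with wild type alike. In GIT1, a GTPase-activating protein for ARF, usage was 7.82% and 12.2% with control siRNA, 49.9% and 54.5% after knockdown, and 6.77% to 14.8% with S34F (-41.4 points, unadjusted p = 4.4e-07). C1orf63 changed by -45 points and PTK2, focal adhesion kinase, by -43.3 points. From knockdown to wild type, GIT1 changed by -32.4 points, C1orf63 by -39.7 and PTK2 by -39.2. S34F minus wild type was -9.04 points in GIT1, -5.33 in C1orf63 and -4.12 in PTK2 (unadjusted p = 0.0079, 0.17 and 0.25, limma).

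A smaller set went against the main direction. The T acceptor of TMEM106C was used at 91.8% and 88% with control siRNA, 66.7% and 61.5% after knockdown, and 88.1% to 93.5% with S34F (25.9 points). That of NAP1L1, a histone chaperone, changed by 15.6 points, from 63.7% and 58.1% after knockdown to 74.9% to 79.1%. That of DOPEY1 was near 0 after knockdown and in control libraries and at 12.5% to 20.9% with S34F. It was also at 15.3% and 11.6% with v1 wild type, and near 0 and at 5.75% with v3 wild type. The isoforms spanning it had a mean of only 1.458 FPKM. The C acceptors of RPAP2 (-29.2 points) and FGFR1 (-26.3 points) were used less with S34F than after knockdown. FGFR1 usage was 26.7% and 28.7% with control siRNA, 70.2% and 63.6% after knockdown and 38.7% to 42.2% with S34F, above both control libraries. All 12 acceptors chosen by the smallest p against knockdown stayed selected without any 1 library.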

How the data were processed

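RNA was sequenced from 14 libraries in 7 groups of 2, and the labels gave the group and replicate number of each. Per the submitters' processing notes, Trimmomatic 0.30 trimmed the reads, and TopHat2 2.0.12 and GRCh37 were used for alignment. How isoforms were quantified, and on which annotation release, is not given in the sources used here. The deposited tables list for every isoform an FPKM and a coverage value, per the file headers. Low values of 1697 single-isoform genes longer than 2500 bases (with 200 taken off the length) were within 0.1 of whole fragments in 92.8% to 98.5% of cases, which gave the depth. Genes with several isoforms hold split estimates, so no count model was used.

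FPKM was summed per gene, and 14233 genes with a mean of at least 1 were tested on log2(FPKM + 1) with limma 3.58.1 in R 4.3.3 (intensity trend, a mean for each of 7 groups, 7 residual degrees of freedom). The pseudocount understates changes of low genes. Usage in percent was tested for 41727 isoforms, from 11666 genes, whose mean usage lay between 5 and 95 percent. Acceptors used exon structures of GENCODE 29, matched by identifier and length for 102715 of 116194 isoforms. Of 31474 acceptors with variable usage, 52.65% had upstream bases in another annotated transcript and 99.37% of those had AG, so they are mostly alternative sites.

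Scripts were tested on simulated data in which libraries varied independently and 200 features changed in the S34F groups. Gene changes of 1 and 2 on the log2 scale were recovered in 70% and 95.5%, with 4.76% and 9.48% of calls false. Usage changes of 20 and 40 points were recovered in 1% and 66%, with 33.3% of 3 calls and 6.38% of 141 calls false. Isoforms not called may thus have changed by 20 points. Members and lists were chosen with earlier results of these data known. Named genes were U2AF1 and U2AF2, and, U2AF1 apart, the 12 largest called rises and 12 largest falls without overlap, the 10 reversed and 8 short genes with the largest knockdown change, the 8 called against both knockdown and wild type with the largest difference from wild type, and up to 4 genes per list. For isoforms the numbers were 8, 8, 6 and 6, and 3 acceptors per base and direction were named. In the check of pairing, deviations of same-numbered libraries from their group means correlated at 0.16 to 0.571 across genes in all 21 pairs of groups (0.0134 to 0.17 for usage), so the replicate block is given for gene counts. Some genes chosen by these rules are not reported here. Left out were 14 genes with an estimate not marked OK. Alternatives covered the pseudocount, the filter, scaling, the block, the libraries in the fit, the usage scale and leaving out libraries.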

Additional observations from a re-analysis of the deposited data

Results flagged for a closer look

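The v1 and v3 constructs differed in the U2AF1 isoform they carried, by a test of the difference itself (limma). Usage of ENST00000291552 was 94 points higher with v3 S34F than with v1 S34F, and that of ENST00000380276 differed by -96.3 points, v3 minus v1. No other isoform of the 41727 tested was called between the constructs.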

How the results depend on the processing

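Some splits between higher and lower turned with the setting. Isoforms used more and less numbered 376 and 324 on an arcsine scale, and list members called higher and lower numbered 13 and 16 with no filter on low values, against 31 and 28. Without replicate 2 of both S34F groups, isoforms used more and less numbered 34 and 15, list members 8 higher and 10 lower, and the median difference of the NF-kB list between S34F and wild type went from 0.07 to -0.12. With no filter on low values, 718 genes were called against knockdown (29 of them in the lists), 93 of 241 knockdown genes were reversed and 16 differed between S34F and wild type. With the replicate number as a block, these were 3327 genes (108 in the lists), 803 of 1681 reversed and 201 differing, and for usage 1462 isoforms called and 78 of 107 reversed. Deviations in usage correlated at 0.0134 to 0.17 between same-numbered libraries, so there the numbers do not pair all groups. With only the 6 libraries compared in the fit, 6 genes and 6 isoforms were called. On an arcsine scale 11 of 19 knockdown isoforms were reversed. In genes of at least 5 FPKM 88 of 112 were, and 12 differed. Leaving out 1 library gave 47 to 1754 genes called, 6 to 69 in the lists, 6 to 164 reversed, 1 to 26 differing from wild type, 59 to 860 isoforms called, 0 to 22 reversed, 0 to 4 differing, and 588 to 1004 acceptors. Without replicate 2 of both S34F groups, a setting chosen after seeing the data, there were 216 genes (18 in the lists), 47 of 268 reversed, 5 differing, 49 isoforms, 0 reversed, 0 differing and 696 acceptors. The cause of these moves was not tested, except that leaving out libraries or groups leaves fewer to estimate the spread. A pseudocount of 0.1 (1329 genes), upper quartile scaling (1309) and quantile normalization (1186, 611 higher and 575 lower) stayed within 1.5 times. Quantile normalization moved the median of all genes from 0.04 to -0.01. Of the 79 gene calls against knockdown that were examined one by one, 15 held without any 1 of the S34F and knockdown libraries and 50 were lost without replicate 2 of both S34F groups. The block ended none of them. Of 39 gene calls against wild type, 13 held without any 1 of the 8 construct libraries. Single control siRNA libraries were left out only for the counts of knockdown genes and isoforms, and single untreated libraries were not left out. Depth limits low genes, since 1 FPKM over 1 kilobase rests on 14 to 21.0 fragments.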
